A study of Glycine soja and Glycine max with 13 samples.

Results

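The genes described here are those whose RNA was more abundant in the seeds of every wild soybean line than in the seeds of every cultivated line. They were chosen from read counts per gene scaled to CPM (each count over the line's total, times 1000000). A gene entered if it averaged at least 2 CPM over the wild lines and if its lowest wild value lay above its highest cultivated value. The rule left out 1 gene, which is not described. It was met by 155 genes among 27191 with at least 2 CPM on average, from a table of 43517 genes, which is 0.57%. The opposite pattern, with every cultivated line above every wild line, was met by 77 of the same 27191 genes, or 0.283%. The minimum of 2 CPM was set on the wild lines only. It leaves out genes scarce in wild seeds and so favours the first count over the second. These values chose the genes, so the difference between wild and cultivated seeds is given as a description. Fits of the same contrast over all genes are given once, as background only.

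Strand-specific RNA sequencing was applied to seeds of field-grown plants, at a labelled age of 13 days after flowering. The 7 lines of wild soybean (Glycine soja) were ys1, ys16, ys17, ys23, ys26, ys29 and ys34. The 6 lines of cultivated soybean (Glycine max) were df3, df12, df14, df17, df36 and df43. No treatment or introduced allele is named for any line, each line gave 1 sample, and neither the number of plants behind a sample nor a batch is named. The spread within a group is therefore the spread between lines. Totals ran from 13923938 to 23610862 counts in wild lines and from 12668664 to 26044036 counts in cultivated lines. At these depths 3 counts stood for 0.127 to 0.215 CPM in wild lines and for 0.115 to 0.237 CPM in cultivated lines, a limit that covers counting error only.

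Wild soybean is the species from which the crop was domesticated, and its seeds are far smaller. During seed filling the embryo takes up sugar and amino acids from the seed coat and lays down protein and oil. The main reserve proteins are the globulins glycinin and β-conglycinin, whose transcripts are scarce in a young seed and among the most abundant in a filling one, so that their level marks how far filling has gone. The deposited table pairs no identifier with a product, and none of 59365 rows of the RefSeq gene table for Glycine soja (ASM419377v2) matched one. The products of the member genes are therefore not given, and they are described by identifier, level, chromosome and behaviour across lines. The chromosome is the number that the identifier carries.

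Most members stood apart by a narrow margin. The gap, taken as the lowest wild CPM over the highest cultivated CPM, had a median of 1.06, a lower quartile of 1.03 and an upper quartile of 1.12. It reached 1.1 in 52 of the 155 genes, 1.2 in 16 and 1.5 in 2. The 2 genes nearest to no gap were Glyma.04G163600, at 21.464 CPM in its lowest wild line against 21.460 CPM in its highest cultivated line, and Glyma.04G236700, at 24.931 against 24.918 CPM. Just outside the rule, Glyma.17G117600 had 18.14 CPM in its lowest wild and in its highest cultivated line, and Glyma.08G173500 had 103.65 against 103.69 CPM. At the threshold of abundance, the members with the lowest wild means were Glyma.13G350000 at 2.79 CPM and Glyma.13G149000 at 2.996 CPM, while Glyma.02G071600 at 1.95 CPM and Glyma.17G205800 at 1.88 CPM showed the pattern but fell short of 2 CPM.

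**Figure D1:**
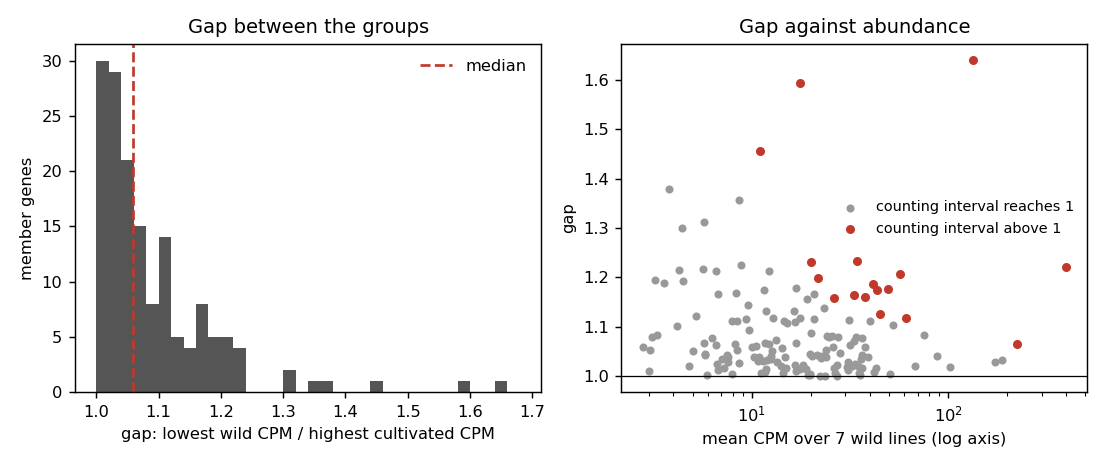
The left panel counts member genes by gap, the lowest wild CPM over the highest cultivated CPM, and the dashed line marks the median of 1.06. The right panel plots the gap of each member against its mean CPM over 7 wild lines on a log axis, with the 17 genes in red whose exact 95% counting interval of the gap lay above 1.

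Counting error alone spans the gap of most members. The 2 libraries that set a gap held a median of 224 counts of the gene in the lowest wild line, and at least 17 there and at least 21 in the highest cultivated line. The exact 95% interval of the gap (Clopper-Pearson on the 2 counts, scaled by the 2 totals) lay above 1 for 17 of the 155 genes. The 2 lines were picked as extremes in genes already chosen for a gap above 1, and the interval does not allow for that choice. For the rest the order of those 2 lines was not settled at this depth. The genes among the 17 were spread over the range of abundance above 10 CPM, with gaps from 1.07 in Glyma.05G088100 to 1.64 in Glyma.15G106200. The difference between group means was wider than the gap. The fold, mean wild over mean cultivated CPM, had a median of 1.67 with quartiles of 1.53 and 1.96, beside a median of 1.048 over all 27191 genes. It was at least 1.5 in 121 members, at least 2 in 36 and at least 3 in 12.

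Glyma.15G106200, on chromosome 15, had the widest gap. It stood at 72.3 CPM in the lowest wild line, with a median of 135 and a highest value of 216, against a lowest value of 27.4, a median of 34.5 and a highest of 44.1 CPM in cultivated lines. Its lowest wild line, ys1, thus held 1.64 times the CPM of its highest cultivated line, df12 (95% counting interval 1.49 to 1.80). Its mean was 135 ± 50.4 CPM in wild seeds (SD, n = 7) and 34.8 ± 6.46 CPM in cultivated seeds (SD, n = 6), a fold of 3.87.

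Glyma.05G085600, on chromosome 5, had the second widest gap, 1.59, and a fold of 10.1. Its wild lines ran from 3.32 CPM in ys1 over a median of 17.8 to 27.5 CPM in ys17, against 1.42 to 2.08 CPM with a median of 1.81 in cultivated lines. The other 6 wild lines held at least 17.3 CPM, so that the gap was set by ys1 alone. Glyma.07G234900, with a gap of 1.46, was even within both groups. It ranged from 7.47 to 12.8 CPM with a median of 11.4 in wild lines and from 3.23 to 5.13 CPM with a median of 4.67 in cultivated lines, means of 11.03 ± 1.85 (SD, n = 7) and 4.43 ± 0.709 CPM (SD, n = 6).

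The gaps of Glyma.08G105200, Glyma.11G032400 and Glyma.06G122700 were next, at 1.38, 1.36 and 1.31, and in all 3 the counting interval reached below 1. Their wild means, 3.80 ± 1.03, 8.65 ± 1.68 and 5.73 ± 1.65 CPM (SD, n = 7 each), lay below the median of 12.4 CPM over all 27191 genes. The cultivated means were 1.62 ± 0.552, 3.05 ± 1.38 and 2.81 ± 0.462 CPM (SD, n = 6 each). In Glyma.11G032400 the cultivated lines themselves were uneven, from 1.38 CPM in df36 to 4.89 CPM in df3.

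A large fold did not go with a wide gap in every gene. Glyma.11G134300 had the largest fold of all members, 14.9, with wild lines from 2.77 CPM in ys26 over a median of 15.05 to 36.3 CPM in ys16, against 0.356 to 2.39 CPM with a median of 1.14 in cultivated lines. Its gap was 1.16, because ys26 lay close to df12. Glyma.12G023300, a gene singled out here for its fold after its values were seen, reached 7.33-fold with a gap of 1.06, from 2.73 to 30.6 CPM in wild lines and from 0.422 to 2.58 CPM in cultivated lines. In Glyma.12G146700 the wild lines ran from 14.6 CPM in ys16 over a median of 31.6 to 58.4 CPM in ys17, against 6.60 to 11.8 CPM with a median of 9.71 in cultivated lines, 3.65-fold apart in the means.

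**Figure D2:**
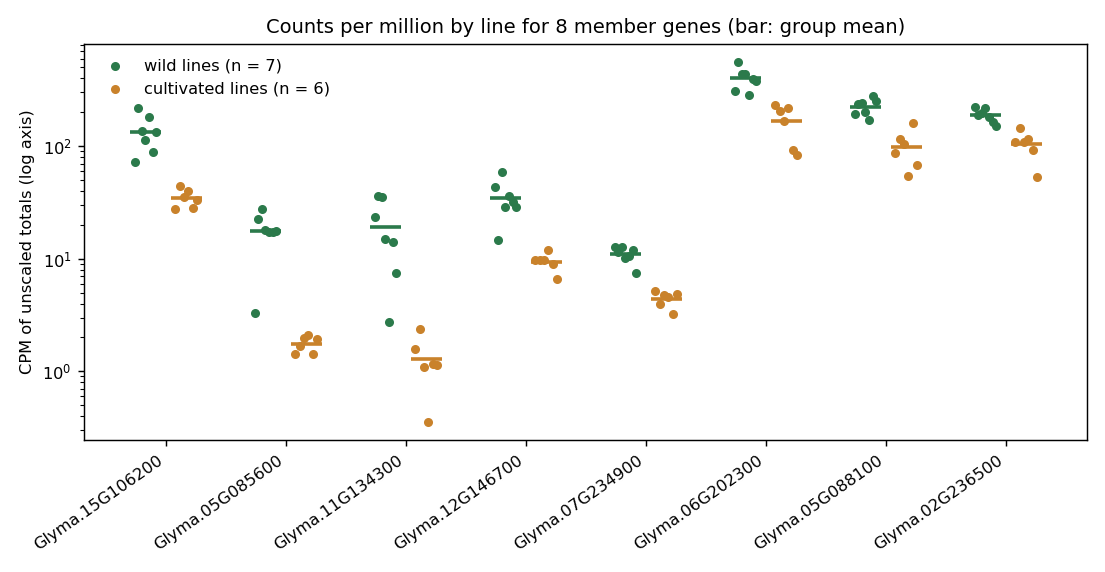
Each point is 1 line, with wild lines in green left of cultivated lines in orange, and bars mark group means. The log axis gives CPM of unscaled totals for 8 member genes; the low wild points of Glyma.05G085600 (3.32 CPM in ys1) and Glyma.11G134300 (2.77 CPM in ys26) lie close above the cultivated lines.

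The model fitted to all 31420 tested genes gives the background of this contrast. With edgeR's quasi-likelihood test and Benjamini-Hochberg adjustment over all genes, 6 genes (0.0191%) were called higher in wild seeds, and 5 of them were members: Glyma.05G085600, Glyma.07G234900, Glyma.11G134300, Glyma.12G146700 and Glyma.15G106200. Nothing is read from this count or from those that follow for the members, because the rule used the same contrast. The called gene outside the set, Glyma.13G194900, failed the rule through 1 wild line at 0.0615 CPM, against a wild median of 9.80 CPM and a highest cultivated value of 0.158 CPM. At an unadjusted p under 0.05, 2763 genes (8.79%) were higher in wild seeds and 153 of the 155 members were among the genes past it. DESeq2 called 458 of the 30790 genes for which it gave an adjusted p (1.49%) higher in wild seeds, and 122 of the 155 members.

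Members were found from scarce to abundant transcripts. Their wild means had a median of 16.8 CPM, with quartiles of 8.62 and 30.8, beside 12.4 CPM with quartiles of 6.21 and 24.96 over all 27191 genes. The highest member mean was 400.1 CPM, and the most abundant gene of the table averaged 117026 CPM in wild seeds. Members made up 0.255% of the genes from 2 to 5 CPM, 0.495% from 5 to 10, 0.668% from 10 to 20, 0.857% from 20 to 50, 0.399% from 50 to 100 and 0.555% above. The 2 highest classes held 7 and 6 members, and the share in the last was near the 0.57% over all genes. Summed over the 155 genes, the CPM of a line ran from 3978 to 4736 in wild lines and from 1771 to 2763 in cultivated lines.

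Glyma.06G202300, on chromosome 6, was the most abundant member. It ranged from 284 CPM in ys26 over a median of 397 to 560 CPM in ys16, against 84.1 CPM in df43 over a median of 186 to 232 CPM in df3, with means of 400.1 ± 91.5 (SD, n = 7) and 167 ± 64.2 CPM (SD, n = 6). All wild lines were high, while the cultivated lines split into 4 between 167 and 232 CPM and the pair df36 and df43 below 100 CPM. Its gap was 1.22 (95% counting interval 1.17 to 1.28), the narrowest interval among the 16 genes with a gap of at least 1.2.

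Apart from Glyma.15G106200, the next in abundance lay much closer to the threshold. Glyma.05G088100 had a gap of 1.07, with 172 to 277 CPM in wild lines (median 237) and 54.2 to 161 CPM in cultivated lines (median 96.5). Here df36 was the highest cultivated line, not the lowest. For Glyma.02G236500 the gap was 1.03, with 150 to 221 CPM in wild lines (median 188) and 53.1 to 146 CPM in cultivated lines (median 109). Glyma.19G038400 had 137 to 197 CPM in wild lines (median 175) against 75.9 to 133 CPM in cultivated lines (median 115), a gap of 1.03. In Glyma.11G096200 the groups nearly met, with 87.0 to 139 CPM in wild lines (median 93.0) against 62.1 to 85.3 CPM in cultivated lines (median 76.2), a gap of 1.02 and the smallest fold of these 6 abundant genes, 1.39.

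The cultivated lines df36 and df43 stood lowest for these genes. The median level of the members relative to the wild mean was -1.35 on the log2 scale in df36 and -1.10 in df43, whereas it was -0.73 in df12, -0.61 in df14, -0.50 in df3 and -0.46 in df17. Over all 27191 genes the same medians were -0.29 in df36, -0.12 in df43, -0.16 in df12, -0.01 in df14, -0.10 in df3 and 0.02 in df17. The pair df36 and df43 were the 2 lowest cultivated lines in 81 members, or 52.3%, beside 18.995% of all 27191 genes. With the other 4 cultivated lines alone the median fold of the members was 1.496 instead of 1.67, and 76 members in place of 121 reached 1.5-fold. The bar to entry was set mostly by other lines: df17 was the highest cultivated line in 61 members, df14 in 33 and df3 in 30, against 13 each in df12 and df43 and 5 in df36. Over all 27191 genes df17 was also most often the highest, in 23.0%. The shares were 19.5% for df43, 16.7% for df14, 15.9% for df36, 13.7% for df3 and 11.2% for df12.

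**Figure D3:**
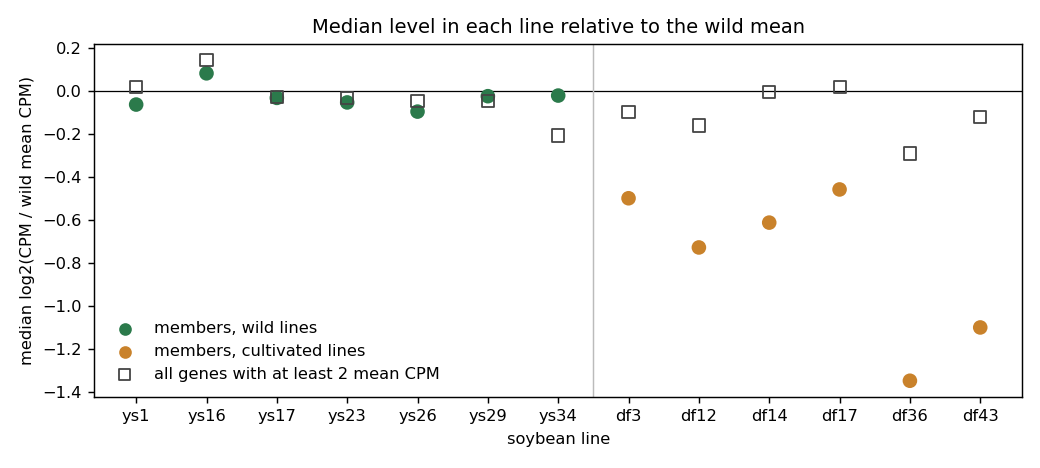
Filled circles give the median over the 155 members of log2 CPM relative to the gene's wild mean, in each of 7 wild lines (green) and 6 cultivated lines (orange). Open squares give the same over all 27191 genes with at least 2 CPM on average; the members were lowest in df36 (-1.35) and df43 (-1.10).

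Among wild lines no line stood out in this way. Their member medians lay between -0.10 in ys26 and 0.08 in ys16. The lowest wild line of a member was ys26 in 37 genes, ys17 in 27, ys1 in 24, ys23 in 20, ys29 in 19, ys34 in 18 and ys16 in 10. Over all 27191 genes it was ys17 in 16.3%, ys23 in 15.2%, ys26 in 14.3%, ys29 in 11.8%, ys1 in 8.35% and ys16 in 3.82%. The highest was most often ys16, in 41 genes. In ys34 the median over all 27191 genes was -0.21 and that of the members -0.02, and ys34 was the lowest wild line in 30.2% of all these genes. The rule requires a member to lie in ys34 above every cultivated line, so this difference is favoured by the choice of the genes.

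Member genes varied together more closely within the cultivated group than within the wild group. The mean Pearson correlation of log2 CPM over all pairs of members was 0.43 across the 6 cultivated lines, beside 0.04 over all pairs of the 27191 genes. Across the 7 wild lines it was 0.06 for members, beside 0.09 for all genes. With totals scaled by TMM, the trimmed mean of ratios between libraries, the cultivated values were 0.33 for members and 0.0015 for all genes, and the wild values 0.16 and 2.3e-04. These are descriptions over the same libraries, which share depth and scaling. The cultivated correlations include df36 and df43, which were the 2 lowest cultivated lines in 52.3% of members. The spread of the members within a group was smaller than that of other genes in wild lines, with a median SD of log2 CPM of 0.19 against 0.33, and near it in cultivated lines, 0.40 against 0.42. Without df36 and df43 the cultivated values were 0.21 and 0.32. The rule favours genes with little spread within a group.

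To see which lines narrowed the set, each line was left out in turn, the genes were chosen again from the other 12, and the line left out was set against the other group. The lines it was set against had chosen the genes, so a high share is favoured by the choice. The share over all genes is printed as background and is not the value to expect without a group difference. With ys16 left out, 165 genes were chosen and 156 of them (94.5%) lay in ys16 above every cultivated line, beside 28.7% of all genes with at least 2 CPM. With ys1 left out the share was 82.0% of 189 genes beside 18.4%, and with ys29 it was 75.6% of 205 beside 18%. It was 72.4% of 214 beside 13.1% for ys34, 68.3% of 227 beside 16.4% for ys23, 64.5% of 242 beside 14.5% for ys26 and 59.4% of 261 beside 19.2% for ys17. The genes that passed were nearly all members, so these shares differ by how many further genes each line kept out. Among wild lines ys17 and ys26 narrowed the set most and ys16 least.

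The cultivated lines were less even, and the same limit holds for them. With df36 left out, 155 of 157 chosen genes (98.7%) lay in df36 below every wild line, beside 35.1% of all genes. The share was 80.3% of 193 beside 26.3% for df43, 76.7% of 202 beside 24.1% for df12 and 62.8% of 247 beside 13.1% for df14. It was 48.9% of 317 beside 12.1% for df3 and 41.8% of 371 beside 8.21% for df17. Thus df17 and df3 kept out the most genes that the other 12 lines would have let in.

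The set also depended on how the counts were scaled. With TMM factors 175 genes met the rule and 115 of the 155 members (74.2%) were among them, with DESeq2's size factors 167 genes and again 115 members, and with totals that leave out the 8 most abundant features 141 genes and 87 members (56.1%). Of the 155 members 75 met the rule under all 3 of these scalings. They had a median gap of 1.12, beside 1.04 for the 80 lost under at least 1 of them. Among the 8 genes in the plot of CPM by line, Glyma.05G088100 was the 1 lost. Genes higher in every wild line made up 66.8% of all genes without overlap in CPM, 56.8% with TMM factors, 55.3% with size factors and 53.8% without the 8 most abundant features. The minimum level was set on wild lines only, which favours a high share.

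Members lay on all 20 chromosomes and formed no long runs. Chromosome 13 held 16, chromosome 8 held 15, and chromosomes 10 and 20 held 11 each, while chromosomes 2, 14 and 15 held 3 each. As a share of the genes with at least 2 CPM on the chromosome, members ranged from 0.193% on chromosome 2 to 0.917% on chromosome 20, beside 0.57% over all. Unplaced scaffolds held 2 of 141 genes. Directly neighbouring members, with no measured gene between their identifiers, made up 2 of 17979 neighbouring pairs of genes above 2 CPM, which is 4 of the 155 members. Allowing 1 measured gene between them added 1 more pair, and no run held 3 members.

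**Figure D4:**
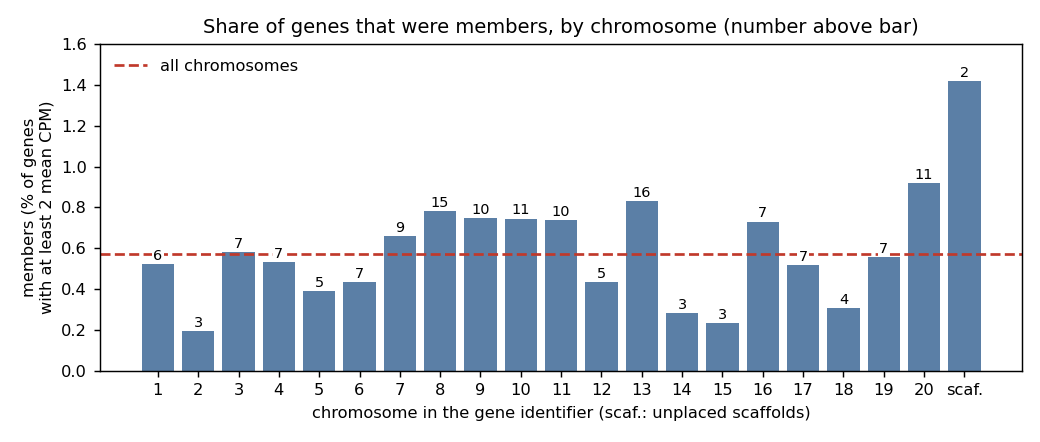
Bars give members as a percent of the genes with at least 2 CPM on average on each chromosome, as numbered in the gene identifiers, with unplaced scaffolds at the right. Numbers above bars count members, and the dashed line marks the 0.57% over all chromosomes.

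The pair on chromosome 12 was Glyma.12G020300 and Glyma.12G020400. The first ran from 17.3 to 23.9 CPM in wild lines (median 19.97) and from 9.97 to 14.04 CPM in cultivated lines (median 12.4), and the second from 15.01 to 22.9 CPM (median 17.3) and from 6.80 to 13.4 CPM (median 10.1). Their nearest neighbours on either side, Glyma.12G020200 and Glyma.12G020500, averaged 16.1 ± 2.69 and 81.3 ± 10.995 CPM in wild lines (SD, n = 7) and 17.8 ± 5.41 and 91.4 ± 13.9 CPM in cultivated lines (SD, n = 6), so the groups overlapped in both. The next gene, Glyma.12G020100, was fitted higher in wild seeds (log2 fold change 0.42, edgeR adjusted p = 0.226), with overlapping groups. The pair on chromosome 10, Glyma.10G028700 and Glyma.10G028800, averaged 17.6 ± 2.02 and 20.2 ± 2.37 CPM in wild lines (SD, n = 7) against 12.8 ± 1.77 and 10.1 ± 4.74 CPM in cultivated lines (SD, n = 6). On chromosome 4, Glyma.04G236500 and Glyma.04G236700 averaged 13.4 ± 0.961 and 27.2 ± 2.31 CPM in wild lines (SD, n = 7) against 9.57 ± 1.82 and 18.4 ± 5.71 CPM in cultivated lines (SD, n = 6). Between them lay Glyma.04G236600, which was uneven within both groups and averaged 10.7 ± 10.3 CPM in wild lines and 16.996 ± 17.5 CPM in cultivated lines. The genes that follow, Glyma.04G236800 and Glyma.04G236900, were fitted higher in wild seeds (log2 fold change 0.48 and 0.69, edgeR adjusted p = 0.168 and 0.181) and overlapped between the groups. On the other side Glyma.04G236300 was fitted lower in wild seeds (log2 fold change -0.51, edgeR adjusted p = 0.151). None of these flanking genes was called.

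On a wider scale, 8 stretches of at most 100 measured genes held 3 or 4 members each, 27 members in all. Members were 0.57% of all genes above 2 CPM. How many such stretches that share would give was not tested, so the count is not read as clustering. On chromosome 5, 4 of its 5 members lay between Glyma.05G079400 and Glyma.05G091600, a stretch of 75 measured genes, and they included Glyma.05G085600 and Glyma.05G088100. In that stretch 25 of the 42 non-members above 2 CPM were fitted higher in wild than in cultivated seeds (median log2 fold change 0.10). On chromosome 12, 3 of its 5 members lay within 27 measured genes, from Glyma.12G020300 to Glyma.12G023300, and 14 of 20 non-members between them had a fitted value higher in wild seeds (median log2 fold change 0.14). The other 6 stretches overlapped these 2 in their values, and the highest median of the 8 was on chromosome 20. Non-members fitted higher in wild seeds were 29 of 61 on chromosome 3 (median -0.03), 26 of 51 on chromosome 17 (0.02), 40 of 67 on chromosome 4 (0.06), 23 of 40 on chromosome 10 (0.08), 40 of 69 on chromosome 13 (0.10) and 19 of 31 on chromosome 20 (0.16). Over the whole table, the 202 genes next to a member and not members themselves had a median fitted log2 fold change of 0.03, the same as over all genes above 2 CPM, and 55.4% of them were fitted higher in wild seeds, beside 53.3% of all. Genes next to a member thus showed about the same fitted values as genes in general.

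Seeds of the same labelled age differed widely in storage protein transcripts, the defining markers of a filling seed, which were detected in every line. The storage score, the mean log2 CPM of the 8 tested glycinin and β-conglycinin genes, ran from 0.83 in ys34 to 9.94 in ys1 among wild lines and from 1.36 in df14 to 10.2 in df12 among cultivated lines. In linear terms the 8 genes summed to between 26.6 and 45901 CPM in wild lines and between 113 and 36073 CPM in cultivated lines. These identifiers come from published work, and no annotation was at hand to check them. None of the 8 storage genes and none of 17 other literature identifiers of reserve and maturation genes was a member. Members were 0.57% of all genes above 2 CPM, so lists this short would rarely hold one, and nothing is read from their absence. The 2 seed coat sugar transporters GmSWEET10a and GmSWEET10b, likewise named from the literature, were not members either, and together stood at 215 to 711 CPM in wild lines and 573 to 1330 CPM in cultivated lines. In bulk seed RNA, fewer cells of a type and less RNA per cell cannot be told apart.

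Few member genes were called related to the storage score. With the group held fixed, edgeR's quasi-likelihood test called 1728 of 31420 genes (5.5%) related to the score over the 13 lines, 1136 (3.62%) rising and 592 (1.88%) falling with it. Of the 155 members, all tested, 1 was called (0.645%), and 6 (3.87%) had an unadjusted p under 0.05 beside 18.7% of all genes. DESeq2 also called 1 member. The median absolute slope was 0.015 log2 units per unit of score in members and 0.032 over all genes above 2 CPM. Within groups the medians were closer, 0.021 beside 0.029 in wild lines and 0.030 beside 0.044 in cultivated lines. The slope over all lines combines the 2 groups, in which the members' slopes leaned in opposite directions. The rule keeps genes with little spread within a group, so a low share is favoured by the choice of the genes, and how much of it this accounts for was not tested. By contrast, 11 of the 17 other reserve and maturation genes rose with the score and none fell.

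The called member, Glyma.18G211900, was higher in lines with a higher score. Its wild lines ran from 14.7 CPM in ys29 over a median of 16.2 to 25.6 CPM in ys23, and its cultivated lines from 6.87 CPM in df36 over a median of 9.59 to 14.7 CPM in df12. The slope was 0.089 log2 units per unit of score (SE 0.024, edgeR adjusted p = 0.0408). In wild lines the 3 with the highest CPM, ys23, ys26 and ys1, were also those with the 3 highest scores. The call was lost without ys1, ys16, ys23, ys26, ys29, df12, df14, df17 or df36 and with the summed score, with edgeR adjusted p of up to 0.185, while DESeq2 gave the lowest, 0.0114. The next in this direction, Glyma.01G140600 and Glyma.03G202100, had slopes of 0.050 (SE 0.021, edgeR adjusted p = 0.206) and 0.054 (SE 0.024, edgeR adjusted p = 0.243).

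In the falling direction no member was called in the fit of all lines. Glyma.11G227200 had the steepest slope, -0.16 (SE 0.062, edgeR adjusted p = 0.161). It was uneven among wild lines, at 12.8 to 15.2 CPM in ys17, ys29 and ys34 and at 3.32 to 4.405 CPM in the other 4, against 0.509 to 2.84 CPM in cultivated lines. Of the 3 high wild lines ys29 and ys34 had low scores and ys17 a high one, and ys16 was low in both. Without ys17 the slope was -0.21 and called (edgeR adjusted p = 0.0200), and over the other settings, DESeq2 included, the adjusted p ran from 0.0656 to 0.347. Glyma.19G103600 and Glyma.16G217800 had slopes of -0.065 (SE 0.029, edgeR adjusted p = 0.233) and -0.057 (SE 0.025, edgeR adjusted p = 0.235). The slope of Glyma.16G217800 was called without df36 (edgeR adjusted p = 0.0365) and without df36 and df43 together (edgeR adjusted p = 0.0316), and its adjusted p was 0.185 to 0.432 elsewhere.

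**Figure D5:**
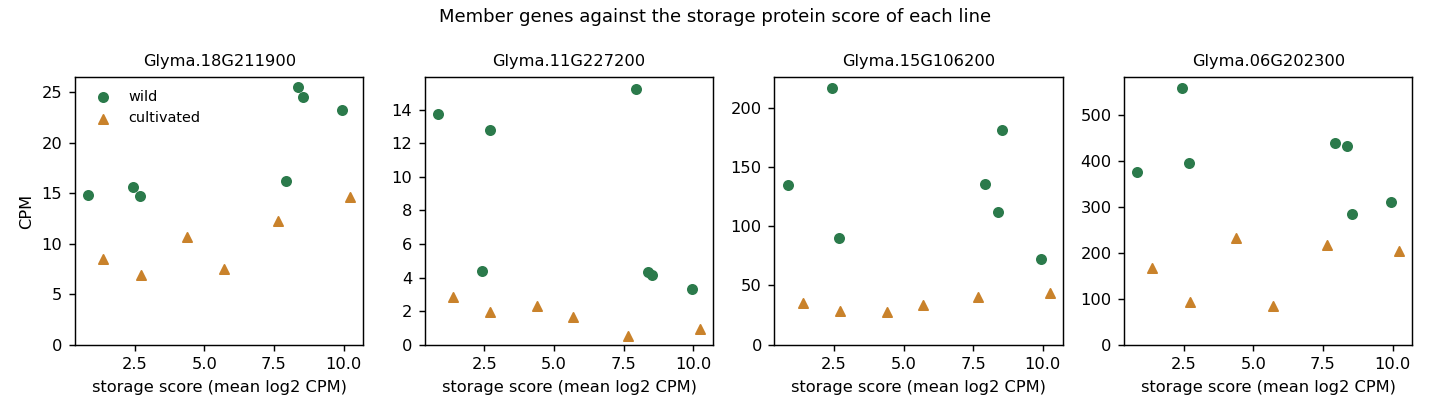
Each panel plots the CPM of 1 member against the storage score of the line, the mean log2 CPM of 8 storage protein genes, with wild lines as green circles and cultivated lines as orange triangles. Glyma.18G211900 was higher at high scores in both groups, whereas Glyma.15G106200 and Glyma.06G202300 had fitted slopes near 0.

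The members with the widest gap and the highest level had slopes near 0. In Glyma.15G106200 the slope was -0.0014 (SE 0.035, edgeR adjusted p = 0.992) and in Glyma.06G202300 it was 0.0012 (SE 0.038, edgeR adjusted p = 0.994). Fitted within each group, the slopes of both genes had opposite signs. Those of Glyma.15G106200 were -0.035 (SE 0.043) in wild lines and 0.049 (SE 0.041) in cultivated lines. Those of Glyma.06G202300 were -0.038 (SE 0.028) and 0.058 (SE 0.067). A slope near 0 over all lines thus does not show that the gene was flat within each group.

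Within each group alone no member was called related to the score. In the 7 wild lines edgeR called 465 of 27407 genes (1.7%, of which 1.4% rising and 0.292% falling) and none of the 155 members, of which 8 had an unadjusted p under 0.05 beside 15.9% of all genes, and DESeq2 called none either. In the 6 cultivated lines edgeR called 70 of 27949 genes (0.25%, of which 0.211% rising and 0.0394% falling) and none of the 146 members tested, of which 0 had an unadjusted p under 0.05 beside 8.43% of all genes, and DESeq2 again called none. At a share of 0.25%, 146 genes would often hold no call, so nothing is read from the absence of calls in cultivated lines. Fitted slopes were negative for 108 of 155 members in wild lines, or 69.7%, beside 49.3% of all genes above 2 CPM, and negative for 46 of 146 members in cultivated lines, or 31.5%, beside 49.8%. Without ys34 the share negative in wild lines was 56.1%, and without df36 the share negative in cultivated lines was 49.3%, so both shares rest largely on 1 line. The rule kept genes that lay above every cultivated line in ys34, the wild line with the lowest score. In CPM the members' median there was -0.02, beside -0.21 over all genes, so they were high only relative to other genes. The rule used unscaled totals, while the fits used TMM factors, of which that of ys34 was the lowest among wild lines, 0.888. Both favour negative slopes in wild lines, and how much of the share they account for was not tested. The fitted slope in wild lines minus that in cultivated lines was negative in 130 of 155 members, or 83.9%, beside 48.1% of all genes above 2 CPM. The same limits hold for this share. A test of the difference between the 2 slopes, added after the data were seen, called 0 of 31420 genes, 0% of them, and 0 members (edgeR). At an unadjusted p under 0.05 it found 3.41% of all genes and 1 of the 155 members.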

How the data were processed

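For each of the 13 lines the deposited table holds raw read counts per gene (whole numbers with unequal totals). Per the labels' protocols, DNase-treated total RNA went into a stranded mRNA library kit. The submitters' processing notes name Trim Galore 0.3.3, TopHat2, SAMtools and edgeR, with no roles. The counter, the genome build, the annotation, the use of strand in counting and the treatment of reads that match several genes were not given in the sources used here. Near-identical, overlapping and antisense genes are therefore uncertain.

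The member genes, the lists and the tests were chosen with earlier results of these data known. CPM are counts over unscaled column sums. Lines were grouped by their strain label, and no 2 libraries were alike (lowest chi-square per degree of freedom 23.2 over 78 pairs). Fits used edgeR 4.0.16 in R 4.3.3 (glmQLFit and glmQLFTest, TMM, filterByExpr, Benjamini-Hochberg at 0.05 over all tested genes) and, as an alternative, DESeq2 1.42.0. SE is the absolute log2 coefficient over the square root of F. The storage score is the mean log2 CPM (TMM, prior count 2) of 8 of 10 listed storage identifiers, those tested. Correlations and SDs used log2(CPM + 0.5). The edgeR fits were also run on simulated counts as a check of the code only. The planted score slopes were steeper than any fitted in a member, so the check does not bear on slopes as shallow as those given here. No molecular identifiers are mentioned, and intervals and floors cover counting error only. Python 3.11.15 with numpy 2.4.6, pandas 2.3.3, scipy 1.17.1 and matplotlib 3.10.9 was used.

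Named genes are the 6 members with the widest gap, the 6 most abundant, members called over all genes, the 3 most related to the score in each direction, the 2 nearest either side of each threshold, and members of runs of at least 3, of which there were none. Members that lie next to each other, the called gene that is no member, Glyma.12G023300 and the ends of stretches were named after their values were seen. Alternatives were other scalings, minimum levels, filters, scores and gaps, DESeq2, and leaving out each line. Leaving out df36 and df43 together, the interaction and the counting interval were added after the data were seen. The gene left out by the rule is not reported here.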

Additional observations from a re-analysis of the deposited data

Results flagged for a closer look

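Within a group, 1 line lay outside the range that Dixon's 95% limit allows in 4 of 48 groups of values tested (8.33%), where chance gives about 1 in 20, or 5%. Glyma.05G085600 stood at 3.32 CPM in wild line ys1, below 17.3 to 27.5 CPM in the other wild lines. In Glyma.08G105200 the same line was high, at 5.92 CPM, above 3.05 to 4.22 CPM in the other wild lines. Glyma.13G149000 stood at 9.35 CPM in wild line ys17, above 1.08 to 2.84 CPM in the others. Glyma.13G350000 stood at 1.32 CPM in cultivated line df43, below 1.73 to 1.97 CPM in the others.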

How the results depend on the processing

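The 155 members became 2 at a gap of at least 1.5 and 17 where the counting interval of the gap had to lie above 1. Leaving out a line gave 157 to 371 genes, over 1.5 times as many without ys17 (261), ys26 (242), df3 (317), df14 (247) or df17 (371). Fewer lines loosen the rule by construction. Other scalings and minimum levels gave 141 to 175 genes and leaving out df36 and df43 together gave 204, all within 1.5 times. Members with a direct neighbour, 4 in CPM, were 0 without the 8 most abundant features and at a gap of 1.5, 10 without df36 and df43, and 4 to 16 on leaving out a line (8 without ys26, 16 without df17, 8 without df43). Genes called higher in wild seeds, 6 with edgeR, were 458 with DESeq2, 35 with the storage score in the model, 2 without df36 and df43, and 4 to 11 on leaving out a line (11 without df12). Members called related to the score, 1 in all lines, were 0 to 2 on leaving out a line (0 without ys1, ys16, ys23, ys26, ys29, df12, df14 or df17, and 2 without ys17; without df36 the 1 called was Glyma.16G217800), 2 without df36 and df43, 0 with the summed score and 0 for the interaction. Within wild or cultivated lines the count of 0 held with DESeq2 and on leaving out each line. The median share of re-chosen genes that the line left out also met, 72.4%, was 74.5% with TMM factors and 73.2% at a minimum of 5 CPM. No fitted slope of the 6 genes named for the score changed sign. The causes of these shifts were not tested unless stated. No paired analysis was possible because line numbers only name lines and the labels give no replicate numbers.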
